A study of Sorghum bicolor with 64 samples.

Results

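AP2 and ethylene-response transcription factors were followed in sorghum stems and leaves after the head of the plant had been removed. Members were taken by the annotation deposited with each gene: rows whose description named an AP2 domain, an ethylene-responsive or AP2-like factor, an EREBP-like factor or a dehydration-responsive element-binding protein, leaving out rows that named wounding. The rule found 59 genes among the 18832 in either organ's table, 47 of the 16942 genes in stems and 48 of the 16386 in leaves. Of these, 36 were in both tables, 11 in the stem table only and 12 in the leaf table only. Each table holds genes above 3 TPM in at least 2 samples of its organ. For a member that met this through 1 group alone, the filter itself favoured a difference between groups. The study grew near-isogenic lines of *Sorghum bicolor* in an outdoor field, in the Tx623 background. The *dd* line carries the recessive *Dry Stalk* allele, which encodes a truncated NAC transcription factor (*SbNAC074A*), and the *DD* line the functional allele. Heads were cut off at anthesis, or left on in control plants, and tissue was collected 10 or 3 d later. Stem RNA came from internode 4 with its outer layer shaved away, and leaf RNA from the middle of the second leaf below the flag leaf. The groups used here were thus head removal and control plants of *dd* at 10 d, *dd* at 3 d, *DD* at 10 d and *DD* at 3 d in each organ, with 3 or 4 stems and 3 leaves in each. Each genotype is 1 near-isogenic line.

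AP2 domain proteins are a large family of plant transcription factors. Ethylene response factors carry one such domain and bind GCC-box elements in promoters, and their dehydration-responsive relatives bind the drought-responsive element. In the ethylene pathway, receptors and the kinase CTR restrain EIN2, which acts through EIN3. EIN3 turns on many response factors, while EBF F-box proteins degrade EIN3. The AP2-like members carry a repeated domain, and in *Arabidopsis* the APETALA2 lineage acts in flower development and the AINTEGUMENTA lineage in the growth of young organs. Many members of the family respond to wounding, drought, cold or hypoxia, and several act early in such responses. No role in sorghum was taken as known for a member annotated by its AP2 domain alone.

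The values are TPM (length-scaled transcript abundance), the share of a library that a gene takes after correction for length, so that levels can be set side by side between genes of 1 sample. Changes are given on the log2(TPM + 1) scale, from a limma model of each organ that adds up terms for treatment, genotype and day. They understate the change of genes near 0. A gene passed the test with an adjusted p under 0.01 over all genes of its organ, and was called a DEG if its difference was also at least 1. The tables held 29 stem and 24 leaf samples, and 3 further stem and 8 leaf samples with labels were not analysed here. TPM keeps no sequencing depth, so the spread between samples is the only measure of precision. The labels call the samples biological replicates, and the p-values measure the spread between them. In stems *dd* control 10 d replicates 3 and 4 lay among the head removal samples on the first principal component, and in leaves *DD* head removal 3 d replicates 2 and 3 lay apart from the rest. Member calls that these samples decided are given with and without them, by gene or as a count. *SbNAC074A* itself was in the stem table only, at 0.361 to 53.9 TPM in *dd* and 0.387 to 32.1 TPM in *DD* stems, which does not check the genotype labels because the truncated copy is transcribed too.

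The family was expressed over a wide range. In stems *Sobic.010G071700*, an EREBP-like factor, averaged 1002 TPM over the 29 samples, followed by the EREBP-like *Sobic.002G212000* at 644 and *Sobic.004G233200* at 277 TPM. In leaves *Sobic.004G233200* led with 209.7 TPM, ahead of the AP2 domain gene *Sobic.003G085600* at 136 and *Sobic.002G212000* at 118 TPM. The stem members comprised 22 genes described by the AP2 domain alone, 13 EREBP-like factors, 7 named as ethylene-responsive factors, 3 AP2-like and 2 dehydration-responsive element-binding genes. The leaf members comprised 22, 16, 5, 3 and 2 genes of the same classes. Replicates of 1 group varied more for the members than for genes at large, with a median standard deviation within groups of 0.39 on the log2(TPM + 1) scale in stems, against 0.21 over all stem genes, and 0.42 in leaves, against 0.26 over all leaf genes. These are descriptions with no test.

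In stems more members were higher than lower after head removal. Of 47 members, 14 were higher in head removal stems (29.8%) and 7 were lower (14.9%). Over all 16942 stem genes 14.4% were higher and 23.5% were lower. Without *dd* control 10 d replicates 3 and 4 the member counts were 12 higher and 6 lower. The median difference of the members was 0.20 on the log2(TPM + 1) scale, against -0.063 over all genes. Of the higher members 8 were AP2 domain genes, 4 were named ethylene-responsive factors and 2 were EREBP-like. The lower members were 3 AP2 domain genes, 2 of the 3 AP2-like genes, 1 EREBP-like and 1 named factor, and neither dehydration-responsive gene passed the test. Among the 14, *Sobic.003G369100*, *Sobic.004G295700*, *Sobic.010G164800* and *Sobic.004G158901* met the 3 TPM minimum in head removal stems only, so the count is a description of the members listed. Green tissue genes moved with the treatment in the same stems: 13 of 19 light-harvesting and Rubisco small subunit genes were higher and none was lower, and their summed level was 3619 to 10107 TPM in head removal stems and 1832 to 8084 TPM in control stems. Of 33 wounding and jasmonate genes 9 were higher and 9 lower, with summed levels of 3561 to 7244 TPM in head removal stems and 3023 to 6157 TPM in control stems, and no gene of either list was at 0. Their part in the result was not tested, and in bulk tissue fewer cells of a type and less RNA per cell cannot be told apart.

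**Figure D1:**
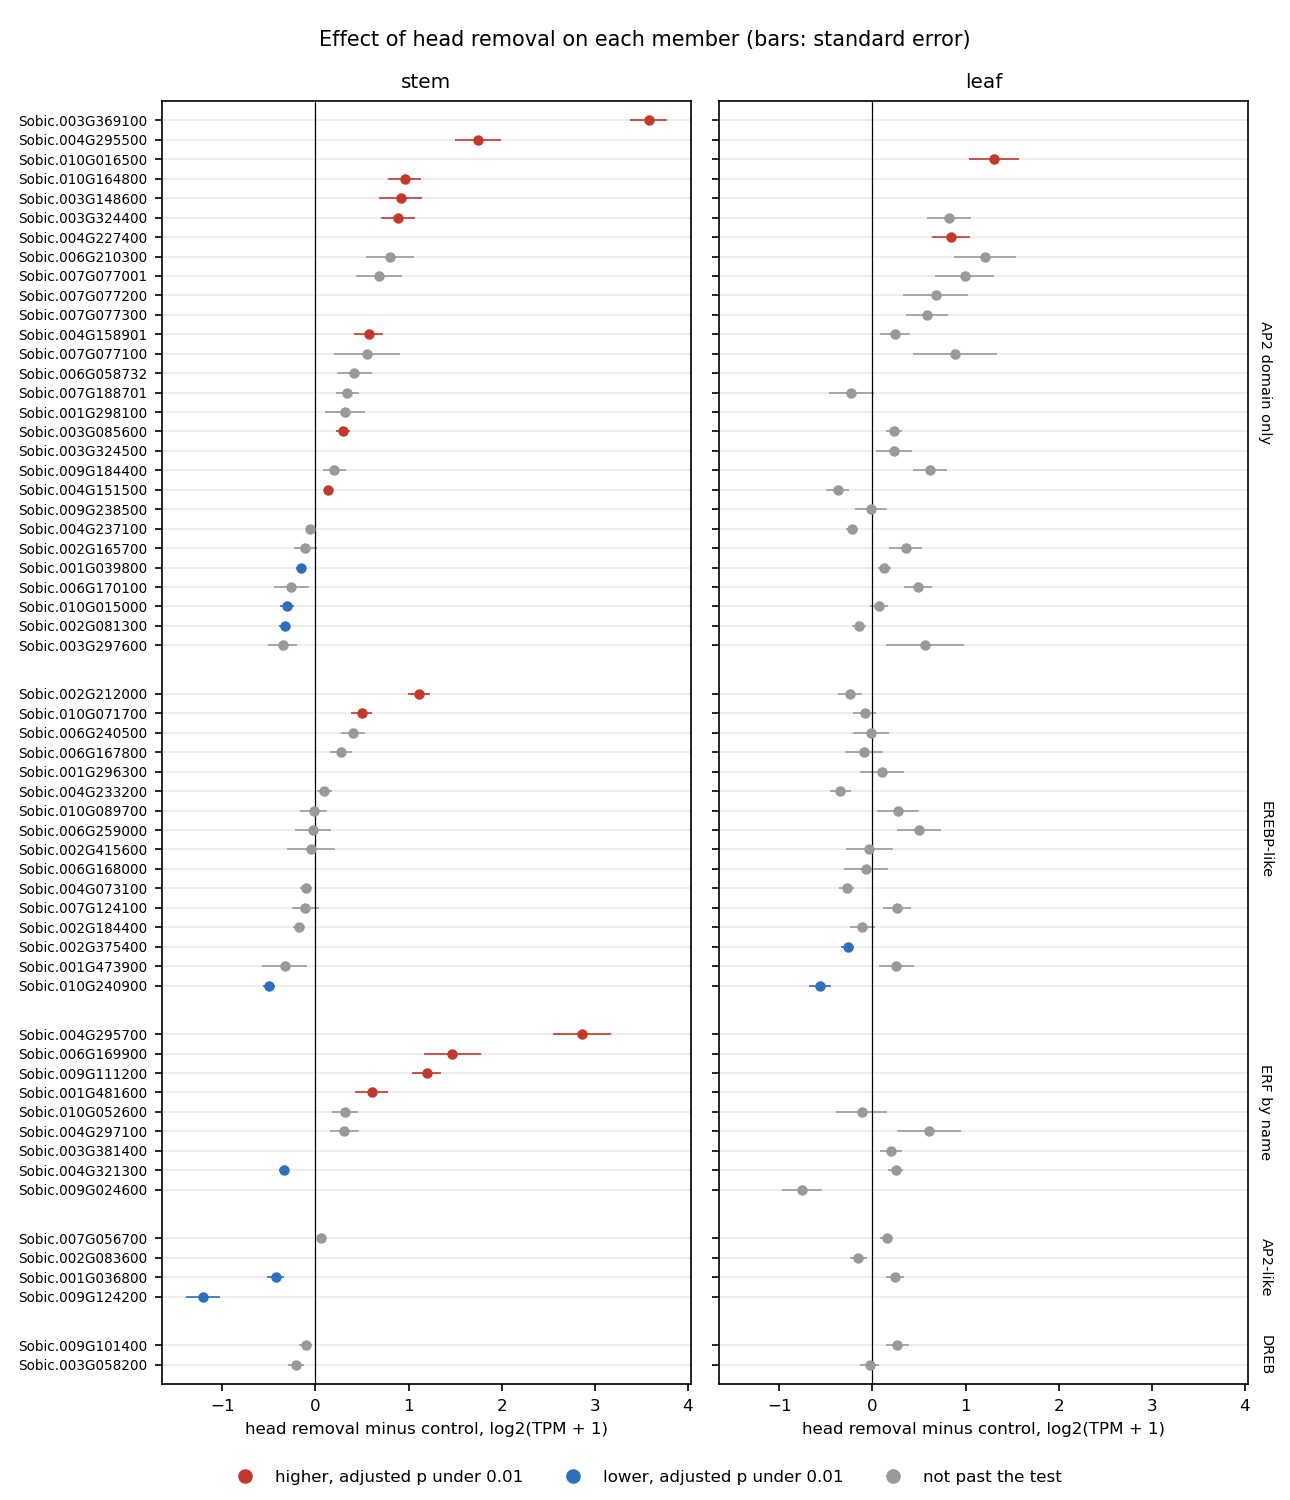
Effect of head removal on each of the 59 members, as the difference of log2(TPM + 1) between head removal and control (horizontal axis) with its standard error, in stems (left) and leaves (right). Members are grouped by description with empty rows for genes that the organ's table does not hold, and in stems 14 members lie to the right and 7 to the left past the test, and *Sobic.003G369100* lies farthest right at 3.58.

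The AP2 domain gene *Sobic.003G369100* had the greatest difference. At 10 d it had 11.1, 24.7, 17.5 and 41.7 TPM in *dd* head removal stems, against 0.169, 0.563, 0.245 and 0.451 TPM in *dd* control stems. In *DD* stems at 10 d the values were 31.2, 30.0 and 44.0 TPM after head removal and 0.662, 0.309 and 0.593 TPM in controls. At 3 d they were 3.92, 9.13 and 14.9 TPM in *dd* head removal stems and 0.344, 0.219, 0.524 and 0.785 TPM in *dd* control stems. In *DD* at 3 d the gene had 12.3, 15.4, 16.5 and 13.6 TPM in head removal stems, against 0.760, 0.657, 0.840 and 0.630 TPM in controls. Every head removal stem exceeded every control stem, the control stems all lying below 1 TPM. The means were 20.4 ± 12.1 TPM in head removal stems and 0.517 ± 0.217 TPM in control stems (SD, n = 14 and 15), a ratio of 39.5, and the limma difference was 3.58 ± 0.20 (SE, adjusted p = 4.84e-13). It was the only one of the 47 members whose head removal and control stems did not overlap at all, which held for 0.525% of all stem genes in the same direction. The difference was 4.05 ± 0.29 in *dd* at 10 d, 2.67 ± 0.32 in *dd* at 3 d, 4.55 ± 0.34 in *DD* at 10 d and 3.16 ± 0.29 in *DD* at 3 d (SE), and each of the 4 passed the test. The treatment effect at 10 d exceeded that at 3 d by 1.38 ± 0.31 (SE), which did not pass at 0.01 (adjusted p = 0.0377). The leaf table does not hold the gene. In stems it met the 3 TPM minimum in head removal samples only, which favoured a difference. Its p-values, passed tests and lack of overlap are therefore descriptions.

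The pair described as *ERF019*-related was also higher, as was an AP2 domain gene with a nearby identifier. *Sobic.004G295700*, *ERF019*-related, had 32.4, 15.0, 35.7 and 9.42 TPM in *dd* head removal stems at 10 d, against 0.326, 0.237, 1.01 and 1.68 TPM in their controls. At 3 d it had 12.7, 11.1 and 41.7 TPM in *dd* head removal stems and 2.79, 0.173, 2.67 and 1.24 TPM in *dd* controls. In *DD* stems it had 10.1, 38.3 and 8.54 TPM at 10 d and 2.49, 8.97, 2.27 and 2.07 TPM at 3 d after head removal, against 0.608, 0.140 and 0.352 TPM and 0.877, 0.244, 0.0782 and 0.815 TPM in the controls of those days. Head removal stems lay above the controls of their own genotype and day throughout, although the lowest *DD* head removal values at 3 d fell below the highest *dd* control values. The mean was 18.7 times as high, and the difference was 2.87 ± 0.31 (SE, adjusted p = 3.88e-08). The gene met the 3 TPM minimum in head removal stems only, so its ratio, difference and p-value are descriptions. Its relative *Sobic.006G169900* had 11.2 to 71.9 TPM (median 24.7, n = 14) in head removal stems and 2.21 to 27.4 TPM (median 8.76, n = 15) in control stems, ranges that overlapped, with a difference of 1.47 ± 0.31 (SE, adjusted p = 0.000277). Reads from the related pair may be shared between them, since the counting of such reads is not given in the sources used here. *Sobic.004G295500*, an AP2 domain gene whose identifier is near that of *Sobic.004G295700*, had 10.4 to 65.0 TPM (median 25.9, n = 14) in head removal stems, against 2.58 to 20.1 TPM (median 8.25, n = 15) in control stems, a difference of 1.75 ± 0.25 (SE, adjusted p = 1.9e-06). *Sobic.006G170100*, an AP2 domain gene with an identifier near that of *Sobic.006G169900* and chosen after its values were seen, had a difference of -0.26 ± 0.19 (SE, adjusted p = 0.261) that did not pass.

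Among the abundant members an EREBP-like factor and one of the genes described as *ERF13* were higher. *Sobic.002G212000*, EREBP-like, reached 1017, 1011, 1216 and 1271 TPM in *dd* head removal stems at 10 d, against 478, 307, 697 and 414 TPM in controls. At 3 d in *dd* it had 864, 1045 and 783 TPM after head removal and 444, 705, 344 and 363 TPM in controls. In *DD* it had 1028, 578 and 975 TPM at 10 d and 734, 676, 641 and 587 TPM at 3 d after head removal, against 387, 322 and 477 TPM and 371, 424, 270.0 and 249 TPM in controls. Within each genotype and day the groups did not overlap, and over all stems the highest control at 705 TPM lay above the lowest head removal stem at 578 TPM. The difference was 1.11 ± 0.12 (SE, adjusted p = 2.76e-08). *Sobic.010G071700*, the most abundant member, had 812 to 1771 TPM (median 1109, n = 14) in head removal stems and 503 to 1035 TPM (median 864, n = 15) in control stems, with a smaller difference of 0.50 ± 0.11 (SE, adjusted p = 0.000492) and overlapping ranges. *Sobic.004G233200*, the third most abundant, had 171 to 390.2 TPM (median 283, n = 14) in head removal stems and 197 to 327 TPM (median 265, n = 15) in control stems and did not pass (difference 0.096 ± 0.082, SE, adjusted p = 0.332).

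*Sobic.009G111200*, described as *ERF13*, changed with both treatment and day. In head removal stems it had 213, 284, 227 and 269 TPM in *dd* and 323, 201 and 242 TPM in *DD* at 10 d, and 66.6, 51.8 and 74.8 TPM in *dd* and 49.0, 106, 62.6 and 68.6 TPM in *DD* at 3 d. In control stems it had 84.4, 118, 119 and 106 TPM in *dd* and 90.1, 48.7 and 77.9 TPM in *DD* at 10 d, and 20.4, 37.2, 49.0 and 42.9 TPM in *dd* and 55.7, 33.9, 34.0 and 20.2 TPM in *DD* at 3 d. The 7 head removal stems at 10 d thus lay between 201 and 323 TPM, above all 22 others. The treatment difference was 1.19 ± 0.15 (SE, adjusted p = 4.61e-07) and the day difference 1.58 ± 0.15 (SE, adjusted p = 1.85e-08), and the treatment by day term was 0.61 ± 0.29 (SE, adjusted p = 0.356). The other gene of that description, *Sobic.001G481600*, had a treatment difference of 0.60 ± 0.18 (SE, adjusted p = 0.00613). Its call was lost without *dd* control 10 d replicates 3 and 4 (0.51, adjusted p = 0.0208), and without any one of 7 stems (replicates 2 and 3 of *dd* head removal at 10 d, replicate 1 of *DD* head removal at 10 d, replicate 2 of *DD* head removal at 3 d, and replicates 1, 3 and 4 of *dd* control at 10 d), where it was 0.52 to 0.67 over all leave-one-out fits with an adjusted p of at most 0.0122.

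**Figure D2:**
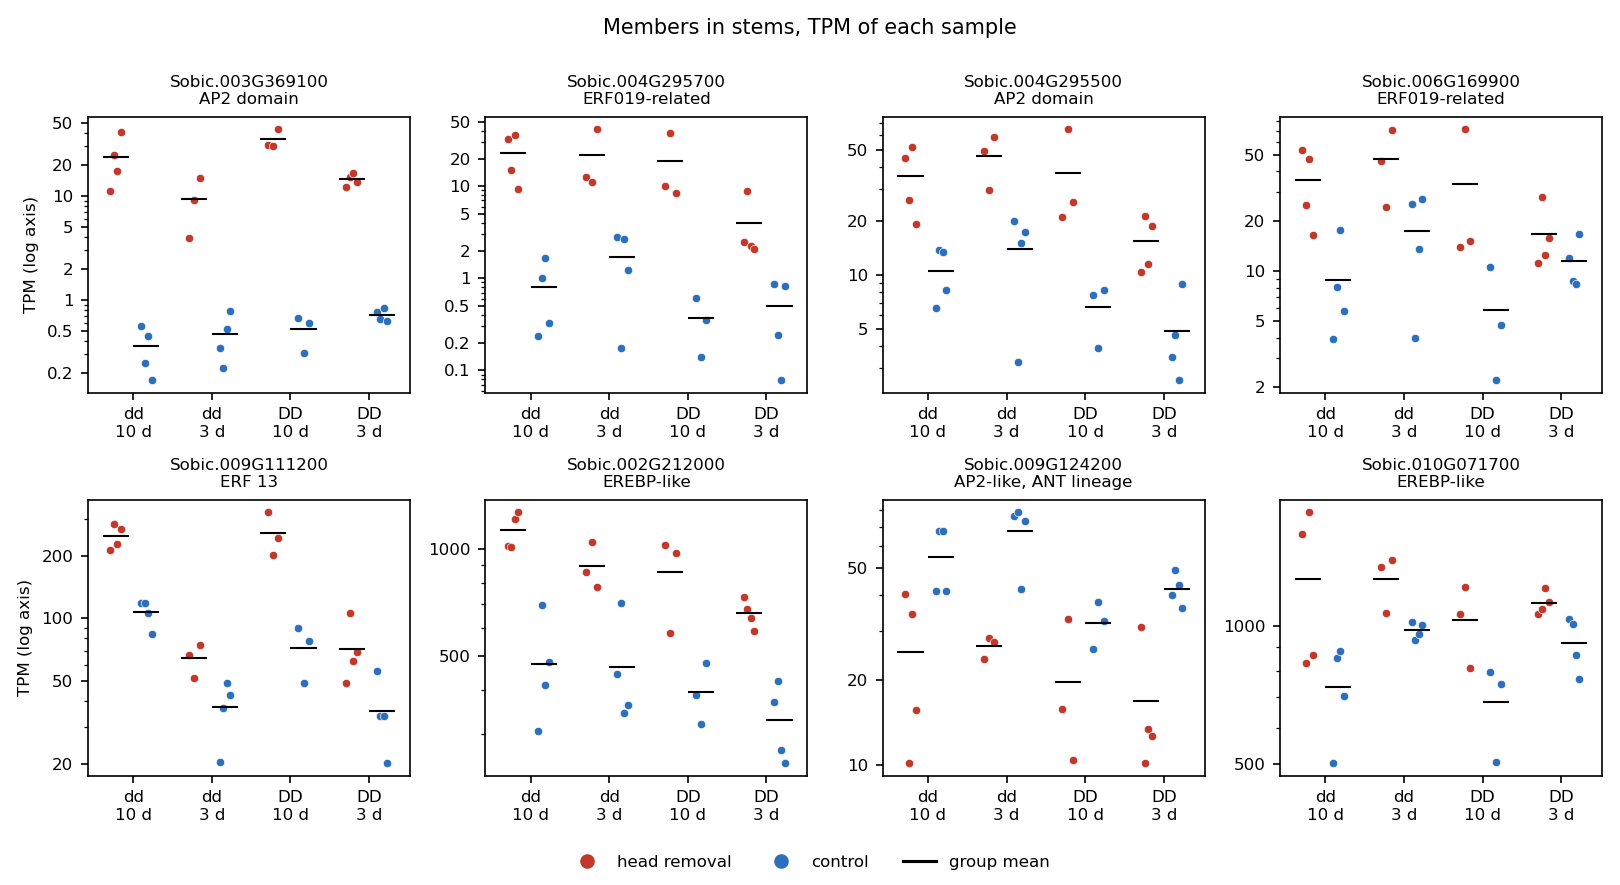
TPM of 8 members in each stem sample on a log axis, for head removal (red, left of each pair) and control (blue) stems of each genotype and day, with bars at the group means. *Sobic.003G369100* has no overlap between treatments, at 3.92 to 44.0 TPM in head removal and 0.169 to 0.840 TPM in control stems, and *Sobic.009G124200* is the panel in which head removal stems lie lower.

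Of the 3 AP2-like genes in stems, 2 were lower after head removal. *Sobic.009G124200*, described as AP2-like of the AINTEGUMENTA lineage, had 40.3, 10.2, 34.4 and 15.7 TPM in *dd* head removal stems at 10 d, against 41.4, 41.4, 67.3 and 67.8 TPM in *dd* controls. At 3 d in *dd* it had 23.7, 28.3 and 27.4 TPM after head removal and 76.7, 78.8, 42.0 and 73.2 TPM in controls. In *DD* it had 15.8, 32.8 and 10.4 TPM at 10 d and 30.9, 10.2, 13.4 and 12.7 TPM at 3 d after head removal, against 25.8, 37.8 and 32.5 TPM and 40.3, 49.2, 43.4 and 36.1 TPM in controls. The groups did not overlap in *dd* or in *DD* at 3 d, and in *DD* at 10 d 1 of 3 head removal stems lay within the control range. The difference was -1.21 ± 0.18 (SE, adjusted p = 5.49e-06), and it was the only member DEG that was lower in head removal stems. *Sobic.001G036800*, of the APETALA2 lineage, had 6.76 to 15.6 TPM (median 11.9, n = 14) after head removal and 12.2 to 23.7 TPM (median 14.8, n = 15) in controls, a difference of -0.43 ± 0.089 (SE, adjusted p = 0.000241). The other gene of the AINTEGUMENTA lineage, *Sobic.007G056700*, had 44.2 to 60.0 TPM (median 50.5, n = 14) after head removal and 42.4 to 56.3 TPM (median 48.5, n = 15) in controls and did not pass (difference 0.063 ± 0.045, SE, adjusted p = 0.242).

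The other 11 members past the treatment test in stems changed by less than 1 on the log2 scale. Higher after head removal were the AP2 domain genes *Sobic.010G164800* (0.96), *Sobic.003G148600* (0.91), *Sobic.003G324400* (0.88), *Sobic.004G158901* (0.57), *Sobic.003G085600* (0.30) and *Sobic.004G151500* (0.13). Lower were the EREBP-like *Sobic.010G240900* (-0.49), the *ERF071*-related *Sobic.004G321300* (-0.34), whose *Arabidopsis* namesake belongs to the hypoxia-responsive factors, and the AP2 domain genes *Sobic.002G081300* (-0.33), *Sobic.010G015000* (-0.30) and *Sobic.001G039800* (-0.16). Of these 11, the calls of *Sobic.004G151500* and *Sobic.001G039800* were the weakest, lost without any one of 22 and 19 stems with an adjusted p of at most 0.0207 and 0.0199. After median-of-ratios scaling 16 members were higher and 6 lower. There the *Sobic.001G039800* call was lost (-0.097, adjusted p = 0.113), and *Sobic.006G210300* (0.86, adjusted p = 0.00735) and *Sobic.006G240500* (0.46, adjusted p = 0.00695) passed. With TPM as deposited the 26 members that did not pass had differences between -0.35 and 0.80. No member passed the test of treatment by genotype or treatment by day in stems with limma, where 2 and 8 members had an unadjusted p under 0.05 and 0 and 8 of all 16942 genes passed (0.0118% higher and 0.0354% lower by day).

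Within single combinations of genotype and day fewer members passed. In *dd* at 10 d 4 members were higher and 4 lower (6.63% and 7.87% of all genes), and in *dd* at 3 d 4 were higher and 1 lower (4.66% and 5.91%). In *DD* at 10 d 6 were higher and 1 lower (3.55% and 7.69%), and in *DD* at 3 d 1 was higher and 0 were lower (0.761% and 0.714%), where 6 members had an unadjusted p under 0.05 in the lower direction. Without the stems found apart 7 were higher in *dd* at 10 d, 3 in *dd* at 3 d, 7 in *DD* at 10 d and 2 in *DD* at 3 d. The counts of lower members did not change. *Sobic.004G295700* and *Sobic.002G212000* passed in 3 of the 4 combinations, and in *DD* at 3 d their differences were 1.56 ± 0.51 (SE, adjusted p = 0.0702) and 1.03 ± 0.24 (SE, adjusted p = 0.0129). The counts of higher members include *Sobic.003G369100* in all 4 combinations and *Sobic.004G295700* in 3 of them. Both met the 3 TPM minimum in head removal stems only, so these counts and the values of *Sobic.004G295700* are descriptions. The EREBP-like *Sobic.006G240500* passed in *DD* at 10 d alone (1.05 ± 0.25, SE) and *Sobic.003G297600*, an AP2 domain gene, in *dd* at 10 d alone (-1.04 ± 0.27, SE). Whether these effects differ between combinations was tested only by the interaction terms above, which neither passed.

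Single stems collected 10 d after head removal differed for several members at once. In head removal stems at 10 d *Sobic.009G124200*, *Sobic.004G295500*, *Sobic.004G295700* and *Sobic.006G169900* were higher in *dd* replicates 1 and 3 than in *dd* replicates 2 and 4, and higher in *DD* replicate 2 than in *DD* replicates 1 and 4. *Sobic.006G169900*, for example, had 53.5, 25.1, 47.6 and 16.5 TPM in *dd* replicates 1 to 4 and 14.0, 71.9 and 15.2 TPM in *DD* replicates 1, 2 and 4. *Sobic.003G148600*, *Sobic.007G077001* and *Sobic.002G415600* showed the opposite order in those stems. *Sobic.003G148600* had 14.5, 54.1, 18.0 and 40.5 TPM in *dd* replicates 1 to 4 and 47.5, 10.5 and 26.9 TPM in *DD* replicates 1, 2 and 4. *Sobic.009G111200*, in contrast, stayed within 213 to 284 TPM in *dd* and 201 to 323 TPM in *DD*. The stems were compared here after their values were seen, with no test, and replicate numbers of different groups are not linked.

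**Figure D3:**
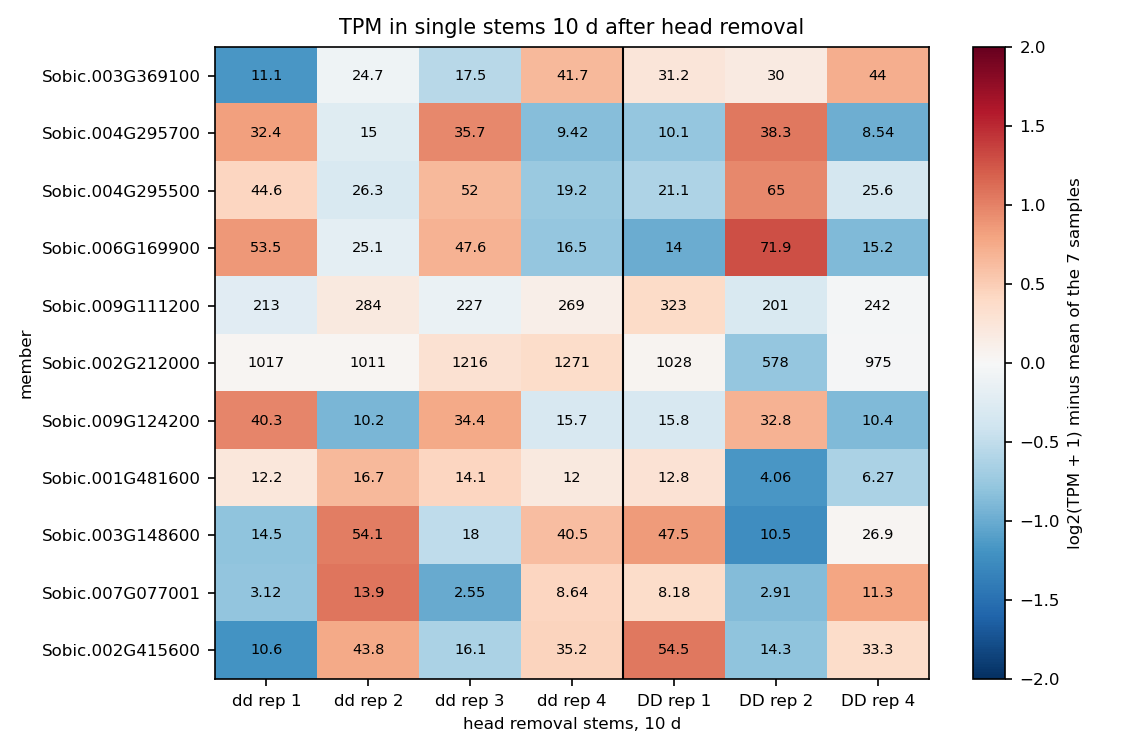
TPM (printed in each cell) of the 11 members that were DEGs for treatment or day, in each of the 7 stems collected 10 d after head removal, with *dd* left of *DD*, on a colour scale of log2(TPM + 1) minus the mean of the 7 stems. *Sobic.006G169900* is at 53.5 and 47.6 TPM in *dd* replicates 1 and 3 and at 25.1 and 16.5 TPM in replicates 2 and 4, while *Sobic.003G148600* is at 14.5 and 18.0 TPM and at 54.1 and 40.5 TPM in those stems.

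By day, 11 of the 47 members were higher at 10 d (23.4%) and 8 were lower (17.0%) in stems, where 8.84% of all genes were higher and 23.7% lower. Their median difference was 0.12, against -0.085 over all genes, and after median-of-ratios scaling the counts were 12 and 4. Of the 19 green tissue genes 12 were lower at 10 d and none higher, with summed levels of 1832 to 8373 TPM at 10 d and 3629 to 10107 TPM at 3 d. Of the 33 wounding and jasmonate genes 10 were higher and 5 lower at 10 d, with summed levels of 3613 to 7244 TPM at 10 d and 3023 to 4623 TPM at 3 d, and their part in the result was not tested. All 5 DEGs were higher at 10 d. *Sobic.001G481600*, described as *ERF13*, had 3.98 to 16.7 TPM (median 5.73, n = 14) at 10 d and 0.545 to 4.34 TPM (median 1.28, n = 15) at 3 d, with a difference of 1.75 ± 0.18 (SE, adjusted p = 3.5e-08). Only *DD* head removal 3 d replicate 2, at 4.34 TPM, lay above the lowest 10 d stems. *Sobic.009G111200*, of the same description, is given above, with 48.7 to 323 TPM (median 159.9, n = 14) at 10 d and 20.2 to 106 TPM (median 49.0, n = 15) at 3 d. *Sobic.003G148600*, an AP2 domain gene, had 7.54 to 54.1 TPM (median 16.2, n = 14) at 10 d and 3.18 to 20.1 TPM (median 5.80, n = 15) at 3 d, a difference of 1.47 ± 0.23 (SE, adjusted p = 1.32e-05). The AP2 domain gene *Sobic.007G077001* had 1.45 to 14.1 TPM (median 2.98, n = 14) at 10 d and 0.371 to 4.12 TPM (median 1.37, n = 15) at 3 d, and differed by 1.22 ± 0.25 (SE, adjusted p = 0.000315). The EREBP-like *Sobic.002G415600* had 10.6 to 58.2 TPM (median 27.4, n = 14) at 10 d and 4.84 to 34.0 TPM (median 10.0, n = 15) at 3 d, and differed by 1.15 ± 0.26 (SE, adjusted p = 0.000852). In all of these the ranges of the days overlapped. The 6 smaller increases were those of *Sobic.009G184400* (0.59), *Sobic.007G124100* (0.48), *Sobic.006G167800* (0.41), *Sobic.004G073100* (0.26), *Sobic.009G101400* (0.23), a dehydration-responsive element-binding protein 2A-related gene, and *Sobic.001G039800* (0.17). Without *dd* control 10 d replicates 3 and 4 the count of higher members was 7, as *Sobic.007G124100*, *Sobic.006G167800*, *Sobic.009G101400* and *Sobic.001G039800* no longer passed (adjusted p = 0.0101 to 0.0233). The calls of these 4 were also lost without any one of 20, 17, 22 and 16 stems, in that order, with an adjusted p of at most 0.0196, 0.0153, 0.0181 and 0.0161. The lower members differed by -0.77 (*Sobic.006G170100*) to -0.20 (*Sobic.004G237100*). Among them the call of *Sobic.003G297600* (-0.54) was lost without any one of 13 stems (adjusted p of at most 0.0153), and that of *Sobic.001G036800* (-0.32) without *dd* control 10 d replicates 3 and 4 (adjusted p = 0.0109). After median-of-ratios scaling the lower calls of *Sobic.003G297600*, *Sobic.001G036800*, *Sobic.003G085600* and *Sobic.004G237100* were lost (adjusted p = 0.0193, 0.02, 0.0265 and 0.0313).

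By genotype no member was higher in *dd* stems and 7 of 47 were lower (14.9%), against 5.17% higher and 12.7% lower of all stem genes. The median difference was -0.18 on the log2(TPM + 1) scale, against -0.065 over all genes. With limma 6 members had an unadjusted p under 0.05 in the higher direction. After median-of-ratios scaling 4 members were higher and 5 lower, with *Sobic.004G295500* (0.91), *Sobic.009G124200* (0.67), *Sobic.002G212000* (0.46) and *Sobic.004G151500* (0.15) newly past the test, and the median of all genes was -0.0041, against -0.065 with TPM as deposited. The DEG was the EREBP-like *Sobic.001G473900*, at 7.36 to 62.7 TPM (median 16.0, n = 15) in *dd* and 20.6 to 69.8 TPM (median 37.5, n = 14) in *DD* stems. The lines overlapped, with *dd* control 10 d replicate 2 among the highest at 62.7 TPM, and differed by -1.05 ± 0.24 (SE, adjusted p = 0.00199). *Sobic.004G158901*, an AP2 domain gene, had 0.245 to 2.16 TPM (median 0.966, n = 15) in *dd* and 0.855 to 7.97 TPM (median 1.96, n = 14) in *DD*, a difference of -0.72 ± 0.16 (SE). It met the 3 TPM minimum in *DD* stems only, so its difference is a description, and the count of 7 includes it. The EREBP-like *Sobic.010G240900* had 11.4 to 31.8 TPM (median 16.2, n = 15) in *dd* and 15.0 to 29.7 TPM (median 23.3, n = 14) in *DD*, a difference of -0.40 ± 0.065 (SE, adjusted p = 0.000102). It was also lower after head removal and at 10 d. The others were *Sobic.009G184400* (-0.50), *Sobic.002G081300* (-0.25), *Sobic.004G321300* (-0.25) and *Sobic.001G039800* (-0.19), and *Sobic.009G184400* and *Sobic.001G039800* did not pass without *dd* control 10 d replicates 3 and 4 (adjusted p = 0.0105 and 0.013). The *Sobic.001G039800* call was also lost without *dd* head removal 3 d replicate 1 or 3 (adjusted p of at most 0.0104). After median-of-ratios scaling the calls of *Sobic.001G039800* and *Sobic.002G081300* were lost (adjusted p = 0.0569 and 0.0214).

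**Figure D4:**
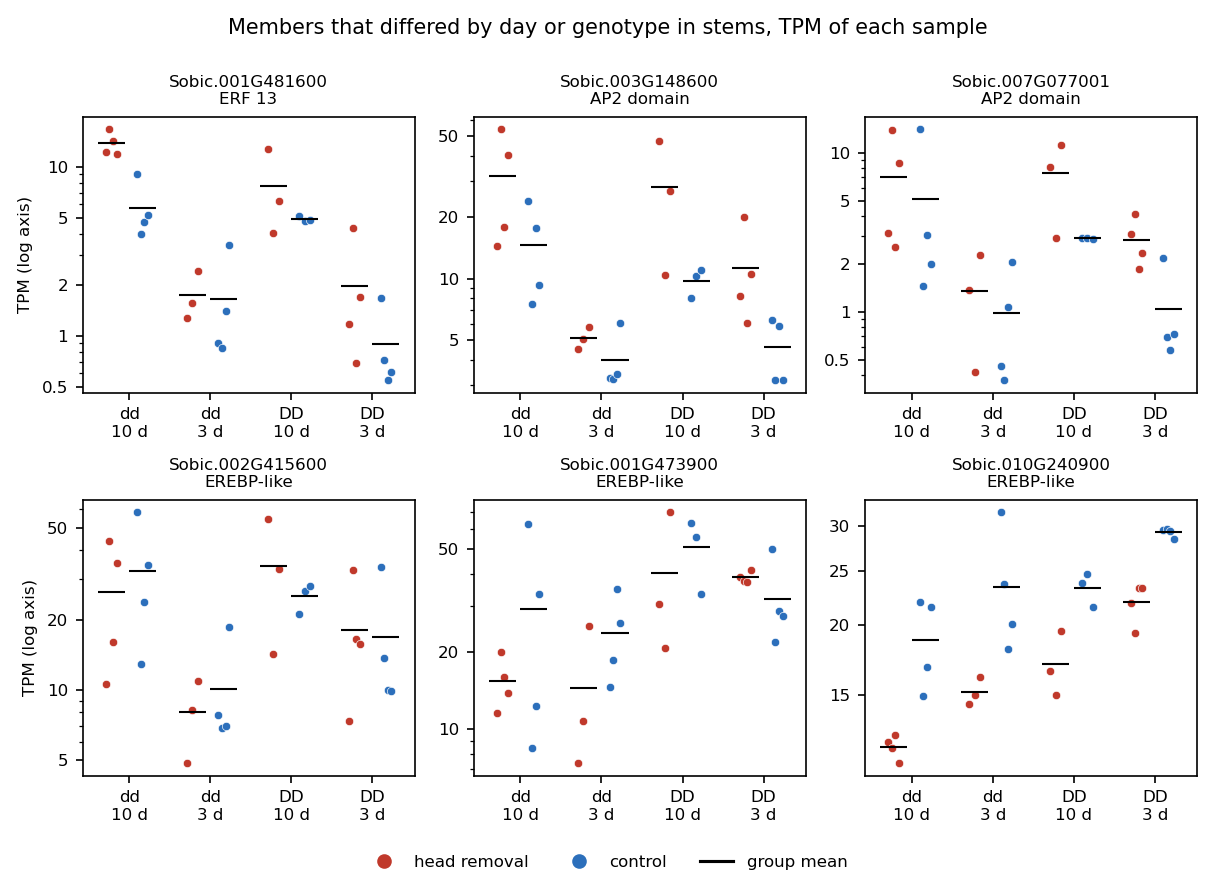
TPM in each stem sample on a log axis of the 4 members other than *Sobic.009G111200* that were DEGs for day, of *Sobic.001G473900*, the DEG for genotype, and of *Sobic.010G240900*, with head removal in red left of control in blue and bars at group means. *Sobic.001G481600* lies at 3.98 to 16.7 TPM at 10 d and 0.545 to 4.34 TPM at 3 d, and *Sobic.010G240900* is lowest in *dd* head removal stems at 10 d, at 11.4 to 12.8 TPM.

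In leaves few members passed. Of 48, 2 were higher after head removal (4.17%) and 2 were lower (4.17%), against 4.32% higher and 7.05% lower of all leaf genes, and the counts were 4 and 1 after median-of-ratios scaling. The median difference was 0.17 on the log2(TPM + 1) scale, against -0.015 over all leaf genes. Both higher members, *Sobic.010G016500* and *Sobic.004G227400*, met the 3 TPM minimum in head removal leaves only, so their differences and p-values are descriptions. The only DEG was the AP2 domain gene *Sobic.010G016500*. In *dd* leaves it had 6.56, 1.05 and 1.19 TPM at 10 d and 3.50, 0.216 and 0.739 TPM at 3 d after head removal, against 0.469, 0.118 and 0 TPM and 0.0765, 0.289 and 0.0874 TPM in controls. In *DD* leaves it had 0.682, 0.574 and 1.29 TPM at 10 d and 6.52, 5.48 and 1.51 TPM at 3 d after head removal, against 0.0708, 0.181 and 0.177 TPM and 0, 0.0600 and 0.198 TPM in controls. Of the 12 head removal leaves 11 lay above the highest control leaf at 0.469 TPM, and the exception was *dd* 3 d replicate 2 at 0.216 TPM. The gene was listed at 0 in 2 control leaves and the difference was 1.30 ± 0.27 (SE, adjusted p = 0.00197). The stem table does not hold it.

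*Sobic.004G227400*, an AP2 domain gene of the leaf table, had 1.88 to 9.86 TPM (median 3.78, n = 12) after head removal and 0.500 to 3.03 TPM (median 1.90, n = 12) in controls, with overlap and a difference of 0.85 ± 0.20 (SE, adjusted p = 0.00496). Its call was lost without *dd* control 3 d replicate 1 or *dd* head removal 10 d replicate 2 (adjusted p of at most 0.0105), and without *DD* head removal 3 d replicates 2 and 3 (0.69, adjusted p = 0.0188). The EREBP-like *Sobic.010G240900* was lower in leaves as in stems, at 9.57 to 25.0 TPM (median 14.7, n = 12) after head removal and 14.2 to 30.6 TPM (median 24.0, n = 12) in controls, a difference of -0.57 ± 0.12 (SE, adjusted p = 0.00186). Each of the 3 *dd* control leaves at 3 d lay between 27.6 and 29.2 TPM and each of their head removal counterparts between 11.2 and 16.1 TPM. The EREBP-like *Sobic.002G375400* had 2.31 to 3.74 TPM (median 3.18, n = 12) after head removal and 3.04 to 4.84 TPM (median 4.08, n = 12) in controls, and its difference of -0.27 ± 0.069 (SE, adjusted p = 0.00812) was lost without any one of 17 leaves (adjusted p of at most 0.0169) and without *DD* head removal 3 d replicates 2 and 3 (adjusted p = 0.0234). The 44 other members differed by -0.75 (*Sobic.009G024600*, named after RAP2-7) to 1.21 (*Sobic.006G210300*) and did not pass with TPM as deposited. After median-of-ratios scaling *Sobic.006G210300* (1.25, adjusted p = 0.00878) and *Sobic.004G321300* (0.28, adjusted p = 0.00643) passed, and *Sobic.002G375400* did not (adjusted p = 0.0126).

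*DD* leaves 3 d after head removal held high values of several members that did not pass over all leaves, and these are named after their values were seen. *Sobic.003G324400*, an AP2 domain gene, had 129.5, 214 and 196 TPM in these leaves, against 29.3, 41.8 and 62.0 TPM in their controls, and was the 1 member that passed within *DD* at 3 d (difference 2.03 ± 0.40, SE, adjusted p = 0.00859), where 0.622% of all genes were higher. The leaves found apart, replicates 2 and 3, gave the first and second of these values, and the third came from replicate 4. Without them the difference was 2.18 ± 0.57 (SE) and did not pass (adjusted p = 0.48), in a fit where replicate 4 alone stands for head removal and is assumed to vary like the other groups. In the other combinations of leaves no member passed with limma, against 0.0061% of all genes higher in *dd* at 3 d and none in the others, and 1 to 3 members had an unadjusted p under 0.05 in *DD* at 10 d, 0 to 5 in *dd* at 3 d and 3 to 4 in *dd* at 10 d, by direction. *Sobic.004G297100*, *ERF15*-related, had 67.1, 124 and 50.8 TPM, against 11.2, 10.1 and 22.3 TPM in controls, and 16.6, 5.09 and 22.9 TPM in *dd* head removal leaves at 3 d, against 16.3, 11.2 and 6.12 TPM in *dd* controls. The *DD* head removal leaves thus stood above the rest, while the *dd* groups overlapped. The difference in *DD* at 3 d was 2.37 ± 0.53 (SE, adjusted p = 0.0171) and did not pass, and it was 1.82 ± 0.76 (SE, adjusted p = 1) without replicates 2 and 3. No member passed the test of treatment by genotype or by day in leaves with limma, where 1 and 12 members had an unadjusted p under 0.05 and no gene of the table passed. Wounding and jasmonate genes were also high in these leaves: their summed level over 39 genes was 5922 to 12895 TPM in *DD* head removal leaves at 3 d and 2237 to 3827 TPM in *DD* controls. Over all leaves 6 of the 39 were higher after head removal (15.4%) and none lower, against 4.32% and 7.05% of all leaf genes. Their summed levels were 3061 to 12895 TPM after head removal and 1990 to 5900 TPM in controls, and none was at 0. These counts were not refitted without the leaves found apart. The part of these genes in the result was not tested.

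**Figure D5:**
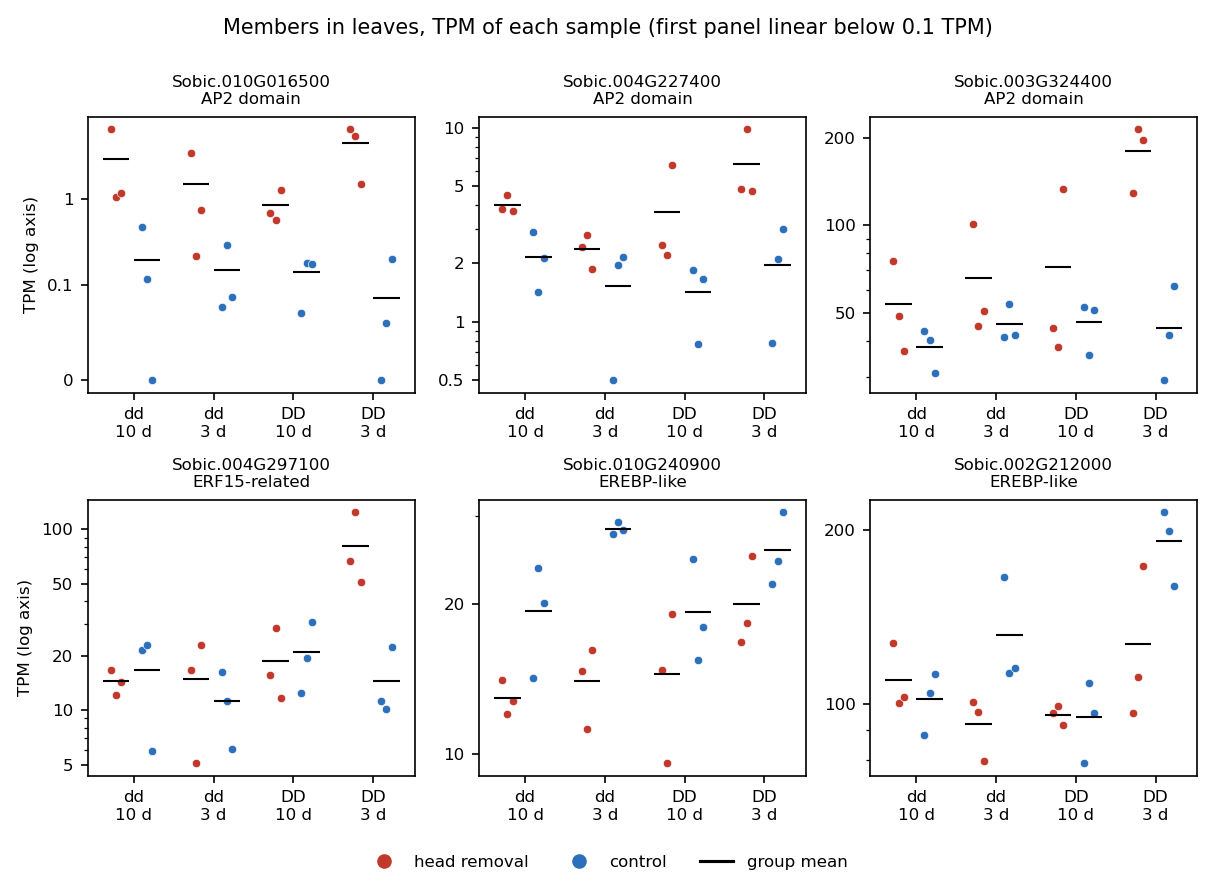
TPM in each leaf sample on a log axis (linear below 0.1 TPM in the first panel) of the 3 members past the treatment test in leaves that are drawn here, *Sobic.010G016500*, *Sobic.004G227400* and *Sobic.010G240900*, and of 3 that did not pass, with head removal in red left of control in blue and bars at group means. *Sobic.010G016500* lies at 0.216 to 6.56 TPM after head removal and 0 to 0.469 TPM in controls, and *Sobic.004G297100* is highest in *DD* head removal leaves at 3 d, at 50.8 to 124 TPM.

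By day 1 of 48 leaf members was higher at 10 d (2.08%) and 3 were lower (6.25%), against 17.8% higher and 3.69% lower of all leaf genes. After median-of-ratios scaling, which moved the median of all genes to -0.0081 from 0.094, no member was higher and 5 were lower. The median difference of the members was -0.034 with TPM as deposited. *Sobic.007G056700*, of the AINTEGUMENTA lineage, had 38.9 to 66.7 TPM (median 46.3, n = 12) at 10 d and 30.4 to 48.8 TPM (median 35.7, n = 12) at 3 d, a difference of 0.38 ± 0.071 (SE, adjusted p = 0.000361). The lower members were *Sobic.009G238500* (-0.66), *Sobic.010G071700* (-0.46) and *Sobic.002G081300* (-0.40), and the last was lower at 10 d in stems too (-0.29). *Sobic.009G238500* did not pass without *DD* head removal 3 d replicates 2 and 3 (adjusted p = 0.0126), nor without replicate 4 of *DD* head removal at 3 d, replicate 3 of *dd* control at 3 d or replicate 4 of *DD* control at 10 d (adjusted p of at most 0.0104). By genotype no member was higher in *dd* leaves with limma (1 with an unadjusted p under 0.05) and 1 was lower (2.08%), against 4.7% higher and 0.738% lower of all leaf genes, with a median difference of -0.20, against 0.028 over all leaf genes. This was *Sobic.010G071700*, at 49.2 to 92.1 TPM (median 74.5, n = 12) in *dd* and 72.3 to 164 TPM (median 91.2, n = 12) in *DD* leaves, which overlapped and differed by -0.53 ± 0.13 (SE, adjusted p = 0.00726). Its genotype and day calls were lost without any one of 12 and 14 leaves, with an adjusted p of at most 0.0163 and 0.0138.

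The effect of head removal itself was compared between organs for the 36 members in both tables, in 1 limma fit over all 53 samples. Stem and leaf samples were treated as independent, since the sources used here do not say whether they came from the same plants. Any such pairing is ignored by the standard errors and p-values. The effect was more positive in stems for 3 members (8.33%) and more negative for 3 (8.33%), against 10.1% and 12.1% of the 14496 genes in both tables. *Sobic.002G212000* rose in stems (1.11) and had a leaf difference of -0.24, with 79.5 to 174 TPM (median 99.7, n = 12) in head removal leaves and 79.0 to 215 TPM (median 113, n = 12) in control leaves. Its effect in stems minus that in leaves was 1.35 ± 0.18 (SE, adjusted p = 6.38e-08). *Sobic.010G071700* had effects of 0.50 in stems and -0.083 in leaves, which differed by 0.58 ± 0.17 (SE, adjusted p = 0.00619). *Sobic.004G151500*, an AP2 domain gene, had 0.13 in stems and -0.37 in leaves, which differed by 0.50 ± 0.12 (SE, adjusted p = 0.0012). The stem effect was the more negative for the *ERF071*-related *Sobic.004G321300* (-0.34 in stems and 0.25 in leaves), with a difference of -0.59 ± 0.096 (SE, adjusted p = 4.8e-06). The same held for *Sobic.001G036800* of the APETALA2 lineage (-0.43 in stems and 0.24 in leaves), with a difference of -0.67 ± 0.13 (SE, adjusted p = 7.24e-05). *Sobic.001G039800*, an AP2 domain gene, had -0.16 in stems and 0.13 in leaves, which differed by -0.29 ± 0.081 (SE, adjusted p = 0.00458). The *Sobic.010G071700* difference did not pass without the samples found apart in both organs (0.47, adjusted p = 0.0232), nor without any one of 8 samples (adjusted p of at most 0.0122). *Sobic.010G240900*, lower in both organs, did not differ between them past the test (0.071 ± 0.13, SE, adjusted p = 0.699).

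Genes of the ethylene pathway outside the family were given by a list of biosynthesis and signalling genes. In stems 0 of 13 were higher after head removal and 3 were lower (23.1%), with a median difference of -0.14. Of all stem genes 14.4% were higher and 23.5% lower, so the share lower is near that of all genes. The lower genes were *Sobic.002G221900*, annotated as related to aminocyclopropane-carboxylate oxidase, the enzyme of the last step of ethylene synthesis (-1.32 ± 0.23, SE, adjusted p = 2.55e-05), and both EIN3-binding F-box genes, *Sobic.004G083300* (-0.85 ± 0.11, SE, adjusted p = 7.15e-07) and *Sobic.010G186200* (-0.40 ± 0.10, SE, adjusted p = 0.00176). In stems 5 of the 13 were lower at 10 d (38.5%, against 23.7% of all stem genes) and 3 lower in *dd* (23.1%, against 12.7%), and none was higher. In leaves 1 of 13 was lower after head removal, *Sobic.002G133400*, annotated as the CTR1 kinase (-0.42 ± 0.087, SE, adjusted p = 0.00201), and none was higher, with a median difference of -0.088. That share of 7.69% is near the 7.05% of all leaf genes that were lower. By day 2 of 13 were lower in leaves (15.4%, against 3.69% of all leaf genes), which became 1 without any one of 16 leaves, and by genotype none passed. Of 32 dehydrin and late embryogenesis abundant genes, proteins that accumulate in drying tissue, 5 were higher and 9 lower in head removal stems, with a median difference of -0.044. These shares of 15.6% and 28.1% are near the 14.4% and 23.5% of all stem genes. The changes that ranked first in size were those of *Sobic.003G149100* (-2.25 ± 0.25, SE, adjusted p = 5.59e-08), *Sobic.001G492000* (1.65 ± 0.34, SE, adjusted p = 0.000258) and *Sobic.008G108000* (-1.56 ± 0.30, SE, adjusted p = 9e-05). In leaves 3 of 29 were higher (10.3%, against 4.32% of all leaf genes) and 1 was lower (3.45%, against 7.05%), with a median difference of 0.16, led by *Sobic.001G344600* (-1.32 ± 0.18, SE, adjusted p = 0.000158), *Sobic.001G209800* (1.19 ± 0.23, SE, adjusted p = 0.00124) and *Sobic.001G017100* (0.70 ± 0.19, SE, adjusted p = 0.00924). The leaf count of higher genes was 1 without replicate 2 of *DD* head removal at 3 d, and likewise without both leaves found apart. By genotype 2 were higher and 3 lower in *dd* stems (6.25% and 9.38%, against 5.17% and 12.7% of all stem genes) and 1 was lower in *dd* leaves (3.45%, against 0.738%). The 2 became 1 or 4 without any one of 11 stems, and the 1 became 0 without any one of 17 leaves. By day 2 were higher and 4 lower in stems (6.25% and 12.5%, against 8.84% and 23.7%) and 1 each in leaves (3.45% each, against 17.8% and 3.69%), where each became 2 or 3 without any one of 7 and 2 leaves.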

How the data were processed

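RNA was extracted from stems and leaves of the 2 near-isogenic lines and sequenced by the study. The submitters' processing notes name FastQC, Trimmomatic, STAR, DESeq and DESeq2, without versions. The genome build and the handling of reads shared by related genes are not given in the sources used here. The authors deposited 1 TPM table per organ. Every gene listed had more than 3 TPM in at least 2 samples. Their tables of fold changes, p-values and clusters were not used. A fold change or ratio printed here was computed from the deposited TPM. Since TPM are not counts, log2(TPM + 1) was fitted with limma 3.58.1 in R 4.3.3, with treatment, genotype and day as terms, all samples of an organ together, and p-values adjusted by Benjamini-Hochberg over all genes of the table. Interactions, single combinations and the difference between organs were fitted in the same way. The fits were also run on simulated data, drawn independently for each gene with added changes of known size. No result here rests on that run.

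The members and lists were chosen with earlier results of these data known. By the naming rule the text names member DEGs for each factor, *Sobic.003G369100*, the 3 members with the highest mean TPM in each organ, up to 5 members whose treatment effect differed between organs and up to 3 genes of each list. Other genes named were chosen after their values were seen. Alternatives were the pseudocount, filter, scaling, threshold, replicate block, single days and genotypes, samples left out and a fit with group means. No sequence is printed.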

Additional observations from a re-analysis of the deposited data

Results flagged for a closer look

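Each named stem member was tested, in each group of 4 stems, for a sample far from the other 3. Of these 90 tests 6 found one, where chance gives about 1 in 20. The tests reuse the same stems, so they are not independent. *Sobic.004G295700* had 8.97 TPM in *DD* head removal 3 d replicate 2, against 2.07 to 2.49 TPM in the other stems of that group. *Sobic.002G415600* had 18.6 TPM in *dd* control 3 d replicate 4, against 6.86 to 7.80 TPM in the others, and *Sobic.003G148600* had 6.05 TPM in the same stem, against 3.23 to 3.41 TPM. *Sobic.009G124200* had 42.0 TPM in *dd* control 3 d replicate 3, against 73.2 to 78.8 TPM. *Sobic.007G077001* had 2.17 TPM in *DD* control 3 d replicate 1, against 0.575 to 0.727 TPM, and *Sobic.004G151500* had 11.4 TPM in *DD* control 3 d replicate 3, against 9.69 to 9.81 TPM.

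The effect of head removal differed between organs by a test of the difference for 6 members. Stem minus leaf, it was 1.35 for *Sobic.002G212000*, 0.58 for *Sobic.010G071700*, 0.50 for *Sobic.004G151500*, -0.29 for *Sobic.001G039800*, -0.59 for *Sobic.004G321300* and -0.67 for *Sobic.001G036800*.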

How the results depend on the processing

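No called effect changed sign under the alternatives run. Counts are of members called, with the value first given in the report in parentheses. The causes of the changes were not tested, and in some alternatives fewer samples or genes entered. With genes of a mean of at least 10 TPM, higher members were 9 (14) for stem treatment, 1 (0) for stem genotype, 7 (11) for stem day and 0 (2) for leaf treatment, and lower members were 1 (2) for leaf treatment. With median-of-ratios scaling, 4 (0) were higher for stem genotype, 4 (8) lower for stem day, 4 (2) higher and 1 (2) lower for leaf treatment, 2 (1) lower for leaf genotype, and 0 (1) higher and 5 (3) lower for leaf day. A fit with 8 group means gave 4 (2) higher for leaf treatment. At an adjusted p under 0.05, 4 (0) were higher and 11 (7) lower for stem genotype, 1 (0) higher for stem treatment by day, 9 (2) higher and 7 (2) lower for leaf treatment, 1 (0) higher and 5 (1) lower for leaf genotype, 3 (1) higher and 8 (3) lower for leaf day, and 6 (3) lower between organs. Without the samples found apart, 7 (11) were higher for stem day, and 1 (2) higher and 1 (2) lower for leaf treatment.

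With day 3 alone, 8 (14) were higher and 3 (7) lower for stem treatment, 3 (7) lower for stem genotype, 0 (2) higher and 0 (2) lower for leaf treatment, 0 (1) lower for leaf genotype and 1 (3) lower between organs. With day 10 alone, 9 (14) were higher and 3 (7) lower for stem treatment, 0 (7) lower for stem genotype, 0 (2) higher and 0 (2) lower for leaf treatment, 0 (1) lower for leaf genotype and 1 (3) higher between organs. With *dd* alone, 6 (14) were higher and 4 (7) lower for stem treatment, 4 (11) higher and 0 (8) lower for stem day, 0 (2) and 0 (2) for leaf treatment, 0 (1) and 0 (3) for leaf day, and 1 (3) higher and 1 (3) lower between organs. With *DD* alone, 7 (14) were higher and 3 (7) lower for stem treatment, 4 (11) higher and 2 (8) lower for stem day, 0 (2) and 0 (2) for leaf treatment, 0 (3) lower for leaf day, and 1 (3) higher and 1 (3) lower between organs.

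With each sample left out in turn, stem treatment gave 12 to 15 higher and 6 to 7 lower members, stem genotype 0 to 3 higher and 6 to 10 lower, and stem day 7 to 11 higher and 7 to 9 lower. Leaf treatment gave 1 to 5 higher and 1 to 3 lower, leaf genotype 0 to 1 higher and 0 to 3 lower, leaf day 1 to 2 higher and 1 to 4 lower, and the difference between organs 2 to 4 higher and 3 to 4 lower, while the interaction terms stayed at 0. The stem day count of higher members moved by over 1.5 times without replicate 1 of *dd* head removal at 3 d, replicate 1 or 4 of *DD* head removal at 10 d, replicate 4 of *dd* control at 3 d, replicate 2 of *dd* control at 10 d or replicate 3 of *DD* control at 3 d, and the leaf treatment count of higher members without replicate 2 of *dd* head removal at 10 d, replicate 1 or 2 of *DD* head removal at 10 d or replicate 1 of *dd* control at 3 d. Also moved that far were the counts of lower members for leaf treatment (without any one of 13 leaves) and leaf genotype (16 leaves), and of higher members for stem genotype (10 stems), leaf genotype (replicate 1 of *dd* head removal at 10 d) and leaf day (replicate 4 of *dd* control at 10 d). The leaf day count of lower members moved so without replicate 4 of *DD* head removal at 3 d, replicate 3 of *dd* control at 3 d or replicate 4 of *DD* control at 10 d. Of the ethylene pathway counts, those of higher genes became 1 (0) for stem treatment without replicate 2 of *DD* head removal at 10 d or replicate 1 of *dd* control at 3 d, and 1 (0) for leaf treatment without replicate 4 of *DD* head removal at 10 d. That of lower genes became 1 (0) for leaf genotype without replicate 1 of *dd* control at 3 d, and without the leaves found apart leaf day gave 1 (0) higher and 1 (2) lower. A replicate block gave 13 (14) higher and 6 (7) lower members for stem treatment, 5 (2) higher for leaf treatment and 1 (0) higher for leaf genotype, and moved no other count by over 1.5 times. The numbers were not taken to pair the samples, since deviations of samples of equal number had a median correlation of -0.015 in stems (91 pairs) and -0.059 in leaves (60 pairs).

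TPM keep no depth, so the precision of low members such as *Sobic.010G016500* in control leaves could not be set against their read numbers. With 3 or 4 samples a group, effects within single combinations of genotype and day had the fewest samples behind them.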

Other observations

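*Sobic.007G077001*, *Sobic.007G077100*, *Sobic.007G077200* and *Sobic.007G077300*, AP2 domain genes with consecutive identifiers chosen after their values were seen, were highest in the same leaf. In *DD* head removal leaves at 10 d *Sobic.007G077100* had 3.16, 6.19 and 70.4 TPM in replicates 1, 2 and 4, against 8.97, 21.1 and 8.45 TPM in *DD* controls at 10 d. *Sobic.007G077200* had 1.72, 1.60 and 28.9 TPM and *Sobic.007G077300* 1.88, 1.59 and 14.1 TPM in the same head removal leaves, and *Sobic.007G077001* had 1.56, 1.01 and 15.1 TPM. *Sobic.006G210300*, an AP2 domain gene with an unrelated identifier, had 19.8, 22.2 and 154 TPM there. Replicate 4 was thus highest for all 5 genes. Reads may be shared among the consecutive genes, whose similarity was not examined here.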
